A study of Mus musculus with 6 samples.

Results

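The genes described are the carriers and enzymes that take glucose to lactate, together with the switch that lets pyruvate into mitochondria, in mouse osteosarcomas with and without Skp2. The list names 35 genes, taken by symbol from the 56196 genes counted in each tumour. All 35 had counts in every group and all 35 passed the filter on low counts that left 15361 genes for testing. The symbol Aldoa belongs to 2 identifiers in the annotation, and the longer gene model, ENSMUSG00000030695.16, is called Aldoa here. The other, ENSMUSG00000114515.2, had 27 to 136 counts per library.

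Polyadenylated RNA was sequenced from 6 osteosarcomas. The 3 double knockout tumours (DKO) had the genotype Osx1-Cre;Rb1lox/lox;p53lox/lox, and the 3 triple knockout tumours (TKO) carried SKP2-/- in addition. Both groups therefore lacked the tumour suppressors Rb1 and p53 wherever the Cre recombinase had acted. The Cre follows the promoter of Osx1, also named Sp7, which drives osteoblast differentiation, so the floxed genes stay intact in cells of other origin. Replicate 1 of each group was from a male, and replicates 2 and 3 were from females. Ages are not given in the labels. Nothing in the labels states that each tumour came from its own mouse, and a p-value here therefore reflects only how far these 6 samples spread, which may be technical.

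Glycolysis splits glucose into pyruvate, and most steps are run by a choice of isoforms from separate genes that differ in tissue and regulation. GLUT carriers bring glucose in, hexokinase traps it, phosphofructokinase commits it, and lactate dehydrogenase with the MCT carriers disposes of pyruvate as lactate. Tumours commonly run this route fast, partly through the hypoxia-inducible factors HIF-1 and HIF-2, which bind a short core sequence near many of its genes. Skeletal muscle uses its own forms at several steps, among them GLUT4 (Slc2a4), phosphofructokinase M (Pfkm), phosphoglycerate mutase M (Pgam2) and beta-enolase (Eno3), and these 4 genes are treated as the muscle isoforms below.

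Facts of the whole series bear on what follows. Gene counts per library ran from 17063231 to 22488819. Skp2 was counted 20 (DKO1), 64 (DKO2) and 46 (DKO3) times in the DKO libraries and 0 times in each TKO library. Rb1, whose gene-level count also takes reads from exons outside a deletion, had 17.9 to 22.5 counts per 1000000 scaled counts (CPM) in DKO and 44.9 to 91.7 CPM in TKO. TKO1 stood apart, with a correlation of log2 CPM across genes of 0.83 to TKO2 and 0.81 to TKO3, where TKO2 and TKO3 had 0.91 and the DKO pairs 0.93 to 0.95. Summed over 9 osteoblast markers, the DKO tumours held 10332 to 13541 CPM, TKO1 3205, TKO2 34316 and TKO3 39169 CPM. Col1a1, the main bone collagen, made up most of this sum in every tumour but TKO1, where it was lowest (209 CPM, 9947 or more elsewhere). Runx2, an early osteoblast factor, was present in every tumour (58.4 to 241 CPM), while Sp7 had 7.97 (DKO1), 0 (DKO2) and 0.416 (DKO3) CPM against 0 (TKO1), 206 (TKO2) and 433 (TKO3) CPM and Ibsp, a bone matrix gene, 0 counts in DKO2, DKO3 and TKO1. The TKO libraries held far more RNA typical of some other cell types. Summed over 17 skeletal muscle markers, 6.13 to 15.6 CPM in DKO stood against 598 to 13661 CPM in TKO, and over 13 macrophage markers 9.01 to 126 against 1365 to 3611 CPM. Summed endothelial markers (9.04 to 10.5 against 172 to 859 CPM) and erythroid markers (0.498 to 1.38 against 89 to 1167 CPM) differed in the same direction. Summed Schwann cell markers went the other way (167 to 420 in DKO against 72.9 to 156 CPM in TKO). Of 3 of these that could be tested, 2 lay higher in every TKO tumour and 1 lower. Summed adipocyte markers overlapped between the groups (6.72 to 79.9 against 35.1 to 114 CPM). In bulk tumour RNA, fewer cells of a type and less RNA per cell cannot be told apart.

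The comparison asked which of the glycolytic genes differ in RNA level between SKP2-null and SKP2-intact tumours. Of the 35 genes, 6 passed the test, a p-value adjusted over all genes by Benjamini-Hochberg of under 0.05 in edgeR's quasi-likelihood test: Slc2a1, Hk2 and Gpi1, at the entry of the route, fell in TKO, and Hk3, Eno3 and Pdk4 rose. Over all 15361 genes 7.36% passed, 4.89% higher and 2.47% lower. The log2 fold change was negative for 22 of the 35 genes and positive for 13, with a median of -0.56 beside 0.09 over all genes tested. Without the 4 muscle isoforms the median of the other 31 was -0.81, and within the 4 it was 4.05. The 31 include further genes that muscle uses, among them Hk2 at -2.06, Pfkfb1 at 0.65 and Pdk4 at 4.47. These medians therefore depend on which genes are treated as muscle isoforms. In 12 of the 35 genes every TKO value lay below every DKO value, and in 5 every TKO value lay above. Over all genes 32.9% separated the groups in this way, 15.6% lower and 17.3% higher. No gene of the 35 changed sign with RLE size factors, with plain library totals or with the muscle markers left out of the scaling.

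No member call outlasted the loss of a DKO library. Leaving out DKO1, DKO2 or DKO3 left 0 of the 35 genes past the threshold in edgeR, with 15, 17 and 15 of them at an unadjusted p under 0.05. The same fits called 39, 2 and 0 of all genes. Without TKO1, in contrast, 15 of the 35 passed, 7 higher and 8 lower, and with DESeq2 on all 6 libraries also 7 and 8. Over all genes, 14.6% passed without TKO1 and 18.8% in DESeq2, so calls grew outside the list as well. Leaving out TKO2 or TKO3 gave 4 and 2 calls among the 35, beside 2.97% and 2.04% of all genes.

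**Figure D1:**
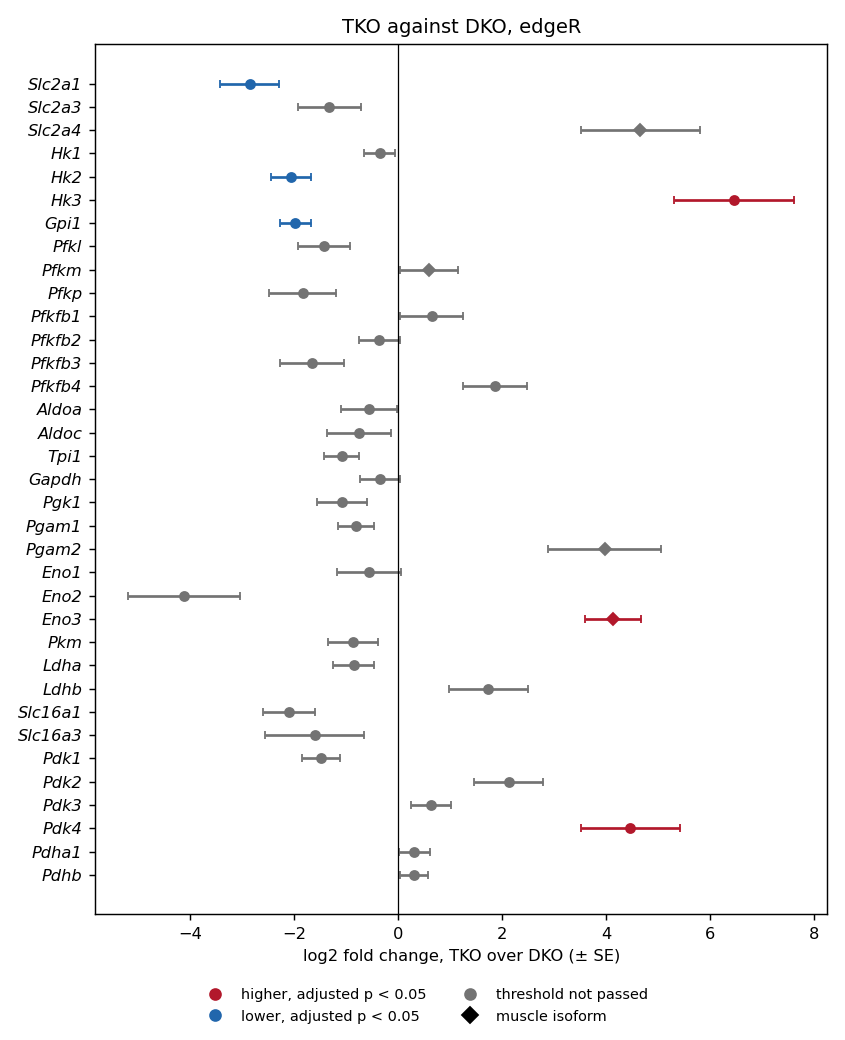
log2 fold change of each of the 35 genes, TKO over DKO, from edgeR's quasi-likelihood test, with bars for 1 standard error (n = 3 tumours a group). Blue marks the 3 genes that fell, red the 3 that rose, grey those that did not pass, and diamonds the 4 muscle isoforms, all of which lie right of 0.

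**Figure D2:**
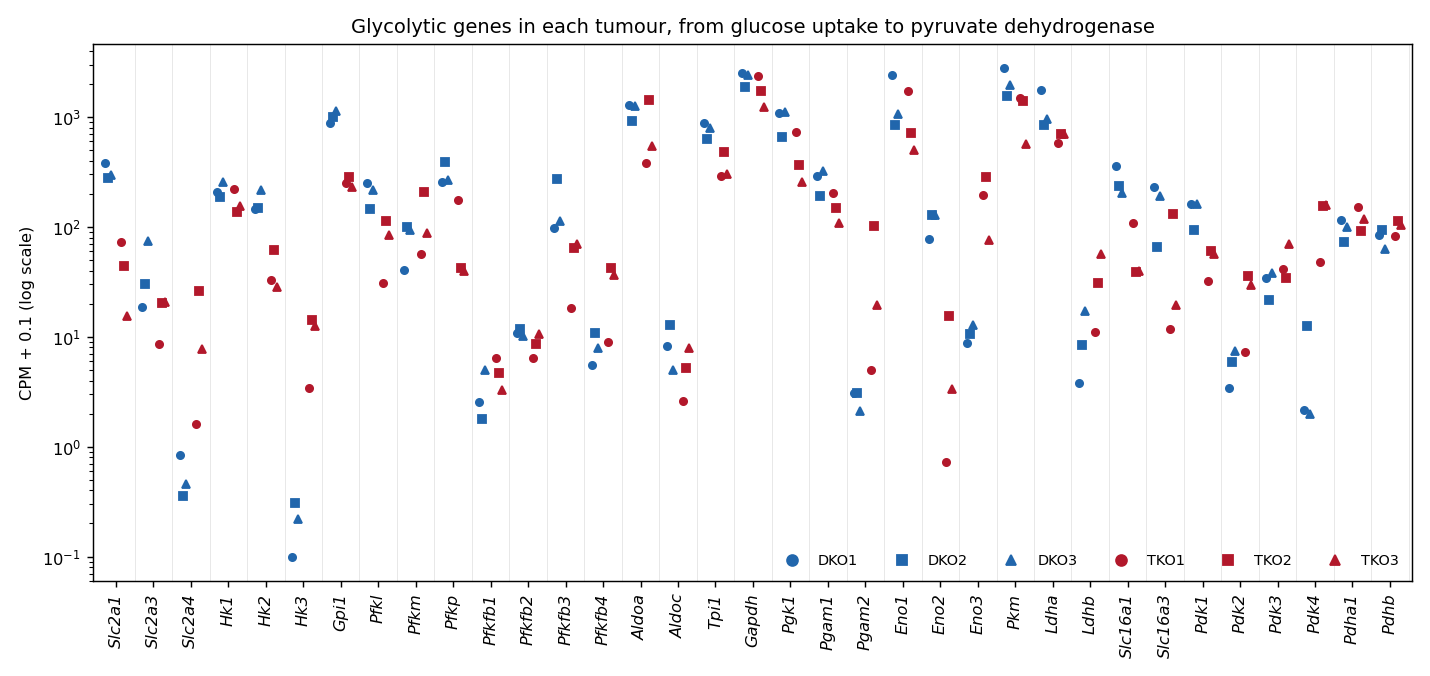
CPM plus 0.1 on a log scale for each gene in each tumour, in the order of the route, with DKO in blue, TKO in red and the symbol giving the replicate. The 6 values of Gapdh span 1239 to 2493 CPM in mixed order, whereas the TKO values of Gpi1 reach at most 287 CPM and its DKO values begin at 891 CPM.

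Of the glucose carriers, Slc2a1 fell in TKO. Slc2a1 codes for GLUT1, the carrier of most growing cells (chromosome 4, 119108711 to 119137983, GRCm38). It had 383 (DKO1), 276 (DKO2) and 295 (DKO3) CPM against 72.4 (TKO1), 44.2 (TKO2) and 15.4 (TKO3) CPM. All 3 TKO values lay below the lowest DKO value, and TKO3 was the lowest. Slc2a1 was 7.22-fold lower in TKO (44 ± 28.5 against 318 ± 56.9 CPM, mean ± SD of 3 tumours; log2 fold change -2.85, SE 0.57, adjusted p = 0.0339). The call did not hold without DKO1 (0.107), DKO2 (0.109), DKO3 (0.118) or TKO2 (0.0923), adjusted p in parentheses. With first-strand counts, which keep reads shared with the antisense gene Gm12868, adjusted p was 0.031. Slc2a3, coding for the high-affinity carrier GLUT3 of neurons and leukocytes, had 18.4, 30.0 and 74.7 CPM in the DKO tumours and 8.54, 20.2 and 20.4 CPM in the TKO tumours. Its groups overlapped and it did not pass (log2 fold change -1.32, SE 0.61, adjusted p = 0.23). Summed per kilobase of principal transcript over Slc2a1, Slc2a3 and Slc2a4, carrier RNA was 92.4 to 122 CPM per kb in DKO and 12.9 to 28.9 in TKO.

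Hexokinase, which phosphorylates glucose, had 1 form that fell and 1 that rose. Hk2, the regulated form of muscle, fat and many tumours (chromosome 6, 82725025 to 82774454), had 145 (DKO1), 149 (DKO2) and 216 (DKO3) CPM against 32.7 (TKO1), 61.2 (TKO2) and 28.2 (TKO3) CPM. The groups did not overlap. Hk2 was 4.17-fold lower in TKO (log2 fold change -2.06, SE 0.39, adjusted p = 0.0297), a call lost without DKO1 (0.0871), DKO2 (0.102), DKO3 (0.114) or TKO3 (0.0768). Hk1, the form of most tissues, had 208, 188 and 258 CPM in the DKO tumours and 222, 138 and 154 CPM in the TKO tumours, and did not pass (log2 fold change -0.35, SE 0.30, adjusted p = 0.5). The log2 ratio of Hk2 to Hk1 counts within a library was -0.37 ± 0.13 in DKO and -2.13 ± 0.84 in TKO (SD, n = 3), a difference of -1.75 with groups that did not overlap. Hk3, a hexokinase of myeloid cells (chromosome 13, 55005985 to 55021385), moved the other way. It was counted 0 (DKO1), 4 (DKO2) and 2 (DKO3) times in DKO, against 80 (TKO1), 295 (TKO2) and 242 (TKO3) times in TKO, or 0 (DKO1), 0.204 (DKO2) and 0.119 (DKO3) CPM against 3.33 (TKO1), 14.2 (TKO2) and 12.3 (TKO3) CPM. Hk3 rose in TKO (log2 fold change 6.46, SE 1.16, adjusted p = 0.0282), and lost the call without DKO1 (0.0746), DKO2 (0.1), DKO3 (0.12), TKO2 (0.0665) or TKO3 (0.065). The macrophage markers had 9.01, 126 and 97.1 summed CPM in the DKO tumours and 1365, 3611 and 2705 in the TKO tumours, and both they and Hk3 were lowest in TKO1 among the TKO tumours. Of the 13 markers 12 rose, where 4.89% of all genes did, and 9 lay under 1 CPM in every DKO library, with C1qa, C1qb, C1qc and Itgam at 0 there. Markers this low in DKO, and Hk3 itself, could pass the filter on low counts mainly through the TKO libraries. The calls of the markers therefore add nothing to the levels. The part of macrophages in the level of Hk3 was not tested. Even in TKO, Hk3 made up 1.61 to 8.61% of hexokinase RNA per kilobase.

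Gpi1 had the smallest standard error of the 6 genes that passed. It codes for glucose-6-phosphate isomerase, the only isomerase of this step (chromosome 7, 34201330 to 34230336). Its level was 891 (DKO1), 996 (DKO2) and 1133 (DKO3) CPM against 249 (TKO1), 287 (TKO2) and 233 (TKO3) CPM. The highest TKO value was well under the lowest DKO value. Gpi1 was 3.93-fold lower in TKO (256 ± 27.7 against 1007 ± 122 CPM, mean ± SD of 3 tumours; log2 fold change -1.97, SE 0.30, adjusted p = 0.0185). The call was lost without DKO1 (0.0673), DKO2 (0.0784), DKO3 (0.0884) or TKO3 (0.0584).

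The promoters of these 3 genes that fell are shown because HIF binds the core ACGTG or GCGTG, and they differ in holding it. Sequences are from RefSeq (GRCm38.p6), from 250 bases before to 50 after the gene's start, 5′ to 3′ on the gene's strand, with each core match on either strand in capitals. The Slc2a1 window (chr4:119108495-119108794, plus strand) had 2 matches, beginning at positions -61 and -36 from the start. The Hk2 window (chr6:82774405-82774704, minus strand) had 2, at -226 and -52. The Gpi1 window (chr7:34230287-34230586, minus strand) had 0.
Slc2a1: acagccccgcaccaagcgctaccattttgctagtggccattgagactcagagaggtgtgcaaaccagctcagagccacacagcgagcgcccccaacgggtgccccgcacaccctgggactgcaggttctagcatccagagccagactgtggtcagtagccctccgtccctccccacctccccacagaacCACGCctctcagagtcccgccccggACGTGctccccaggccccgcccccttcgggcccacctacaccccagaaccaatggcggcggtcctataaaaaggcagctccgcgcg
Hk2: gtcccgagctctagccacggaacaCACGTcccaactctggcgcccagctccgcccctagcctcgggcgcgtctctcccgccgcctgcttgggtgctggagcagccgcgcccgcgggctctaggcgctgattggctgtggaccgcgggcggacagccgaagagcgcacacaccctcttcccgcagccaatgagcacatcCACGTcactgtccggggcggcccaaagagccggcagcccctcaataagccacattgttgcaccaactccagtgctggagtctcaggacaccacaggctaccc
Gpi1: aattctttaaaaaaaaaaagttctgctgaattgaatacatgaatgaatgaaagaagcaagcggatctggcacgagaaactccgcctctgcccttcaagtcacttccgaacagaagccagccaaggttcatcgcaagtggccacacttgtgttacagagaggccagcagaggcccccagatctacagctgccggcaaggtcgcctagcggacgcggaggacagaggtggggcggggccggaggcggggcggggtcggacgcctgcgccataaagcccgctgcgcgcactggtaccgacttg

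Across the list, 33 of the 35 genes had a promoter in the RefSeq table, and 26 of these windows (78.8%) held at least 1 HIF core, beside 43.8% of all 32851 windows of that length. Member windows were also richer in G and C, with a median of 61.0% against 52.7%, and the core itself holds a CG. The core occurred in 2 of the 3 genes that fell, in all 3 that rose and in 21 of the 27 that did not pass. A match describes these letters only. Slc2a3 and Slc2a4 had no entry.

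At phosphofructokinase, the committed step, the L and P forms did not pass in edgeR. Pfkl, the liver-type form, had 253, 144 and 217 CPM in the DKO tumours and 30.6, 113 and 84.7 CPM in the TKO tumours (log2 fold change -1.43, SE 0.51, adjusted p = 0.14). Pfkp, the platelet-type form common in tumours, had 258, 393 and 269.5 CPM in the DKO tumours and 177, 41.8 and 39.8 CPM in the TKO tumours (log2 fold change -1.83, SE 0.64, adjusted p = 0.136). In both genes all TKO values lay below all DKO values. Pfkp passed in DESeq2 (0.0454) and without TKO1 (0.00511), the TKO tumour with 177 CPM against 39.8 and 41.8 in the other 2. The bifunctional PFKFB enzymes set fructose 2,6-bisphosphate, the strongest activator of phosphofructokinase. Pfkfb3, the high-kinase form induced by hypoxia, had 97.5, 272 and 112 CPM in the DKO tumours and 18.3, 64.8 and 69.6 CPM in the TKO tumours and did not pass (log2 fold change -1.66, SE 0.62, adjusted p = 0.16), with no overlap of the groups. Pfkfb4, another inducible form, lay the other way in TKO2 and TKO3, with 5.48, 10.8 and 7.78 CPM in the DKO tumours and 8.92, 42.1 and 36.8 CPM in the TKO tumours (log2 fold change 1.87, SE 0.62, adjusted p = 0.123). TKO1 lay inside the DKO range, and without it Pfkfb4 passed (0.0145), as it did in DESeq2 with all libraries (0.0261). Per kilobase, Pfkfb3 was 82.1 ± 6.82% of the RNA of the 4 PFKFB genes in DKO and 43.5 ± 8.37% in TKO, and Pfkfb4 5.92 ± 1.17% and 32.3 ± 9.07% (SD, n = 3). Pfkfb1, of liver and muscle, and Pfkfb2, of heart, stayed between 1.69 and 11.5 CPM in all tumours, with adjusted p of 0.545 and 0.615.

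From aldolase to pyruvate kinase, Aldoa, Aldoc, Tpi1, Gapdh, Pgk1, Pgam1, Eno1 and Pkm did not pass in edgeR. Tpi1, triose phosphate isomerase, was the nearest, with 873, 627 and 786 CPM in the DKO tumours and 292, 481 and 305 CPM in the TKO tumours and no overlap (log2 fold change -1.08, SE 0.34, adjusted p = 0.104). It passed in DESeq2 (0.0207). Pkm, pyruvate kinase M, also lay lower in every TKO tumour, with 2768, 1540.3 and 1973 CPM in the DKO tumours and 1481, 1409 and 574 CPM in the TKO tumours (log2 fold change -0.86, SE 0.48, adjusted p = 0.315). Gene counts do not separate its M1 and M2 splice forms. Aldoa, the main aldolase, had 1298, 927 and 1251 CPM in the DKO tumours and 382, 1427 and 541 CPM in the TKO tumours (log2 fold change -0.56, SE 0.54, adjusted p = 0.553). TKO2 held the highest Aldoa value of all 6 tumours. Its partner Aldoc stayed under 12.8 CPM except in DKO2, where it reached that level, and the Aldoc to Aldoa ratio overlapped between the groups. Gapdh, often taken as a reference gene, had 2493, 1869.9 and 2397 CPM in the DKO tumours and 2374, 1727 and 1239 CPM in the TKO tumours (log2 fold change -0.34, SE 0.39, adjusted p = 0.623). Pgk1, phosphoglycerate kinase, had 1086, 664 and 1115 CPM in the DKO tumours and 731, 369 and 256 CPM in the TKO tumours (log2 fold change -1.08, SE 0.47, adjusted p = 0.215), and passed without TKO1 (0.0412). Pgam1, the widespread phosphoglycerate mutase, had 293, 189 and 321 CPM in the DKO tumours and 202, 148 and 107 CPM in the TKO tumours (log2 fold change -0.81, SE 0.35, adjusted p = 0.206). Eno1, alpha-enolase, had 2410.2, 844 and 1063 CPM in the DKO tumours and 1714, 718 and 505 CPM in the TKO tumours, with the highest value of each group in its male tumour (log2 fold change -0.56, SE 0.62, adjusted p = 0.615). Without DKO1 the log2 fold change of Eno1 was 0.030. Per kilobase, Gapdh was the most abundant of the 35 in both groups, at 1587 ± 236 CPM per kb in DKO and 1253 ± 401 in TKO (SD, n = 3), and its groups overlapped.

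Of the 4 muscle isoforms, Eno3 rose and the other 3 did not pass in edgeR. Eno3, beta-enolase of muscle (chromosome 11, 70657202 to 70662513), had 8.61 (DKO1), 10.4 (DKO2) and 12.6 (DKO3) CPM against 197 (TKO1), 282 (TKO2) and 75.4 (TKO3) CPM. The groups did not overlap, and TKO3 was the lowest of the TKO tumours. Eno3 was 17.5-fold higher in TKO (185 ± 104 against 10.5 ± 1.99 CPM, mean ± SD of 3 tumours; log2 fold change 4.13, SE 0.54, adjusted p = 0.0144), and lost the call without DKO1 (0.0714), DKO2 (0.0784) or DKO3 (0.0709). Pgam2, the muscle mutase (chromosome 11, 5801640 to 5803733), had 2.99 (DKO1), 2.96 (DKO2) and 2.02 (DKO3) CPM against 4.88 (TKO1), 101 (TKO2) and 19.3 (TKO3) CPM. All TKO values lay above the DKO values, TKO1 only just, and Pgam2 did not pass (log2 fold change 3.97, SE 1.08, adjusted p = 0.0744) with all libraries in edgeR. It passed without TKO1 (0.0139) and in DESeq2 (0.000364). Slc2a4, the insulin-responsive carrier of muscle and fat (chromosome 11, 69942539 to 69948188), had 0.747 (DKO1), 0.255 (DKO2) and 0.356 (DKO3) CPM against 1.5 (TKO1), 25.8 (TKO2) and 7.65 (TKO3) CPM. It showed the same order of TKO tumours and did not pass with all libraries (log2 fold change 4.66, SE 1.15, adjusted p = 0.058). It passed without TKO1 (0.0131), with no filter (0.0188) and in DESeq2 (4.85e-05). Pfkm (chromosome 15, 98092589 to 98132451) had 40.4 (DKO1), 99 (DKO2) and 93.6 (DKO3) CPM against 56.6 (TKO1), 208 (TKO2) and 88 (TKO3) CPM. Its groups overlapped (log2 fold change 0.60, SE 0.56, adjusted p = 0.552), and without TKO2 its log2 fold change was -0.095.

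Isoform shares were compared within each tumour, free of any scaling between libraries. A share also depends on the other genes of its step. Slc2a1, Pfkl, Pfkp and Eno2 lay lower in every TKO tumour, while the level of Pfkm itself overlapped between the groups. Per kilobase of principal transcript, the share of enolase RNA from Eno3 was 0.451% (DKO1), 1.42% (DKO2) and 1.39% (DKO3) against 12.9% (TKO1), 33.4% (TKO2) and 16.1% (TKO3). For Pgam2 among the mutases it was 2.11% (DKO1), 3.2% (DKO2) and 1.31% (DKO3) against 4.85% (TKO1), 59% (TKO2) and 27.6% (TKO3). Pfkm made up 9.74% (DKO1), 20.5% (DKO2) and 20.9% (DKO3) against 27.9% (TKO1), 64% (TKO2) and 48.6% (TKO3) of phosphofructokinase RNA. Slc2a4 made up 0.11 to 0.242% of the carrier RNA in DKO and 2.38% (TKO1), 35.4% (TKO2) and 23.4% (TKO3) in TKO. In all 4 steps the 3 TKO shares exceeded the 3 DKO shares, and TKO2 had the largest and TKO1 the smallest. Levels per kilobase depend on the gene model: over all exons of a gene, an alternative chosen after the data were seen, the mean Eno3 share was 2.44% in DKO and 37.3% in TKO.

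**Figure D3:**
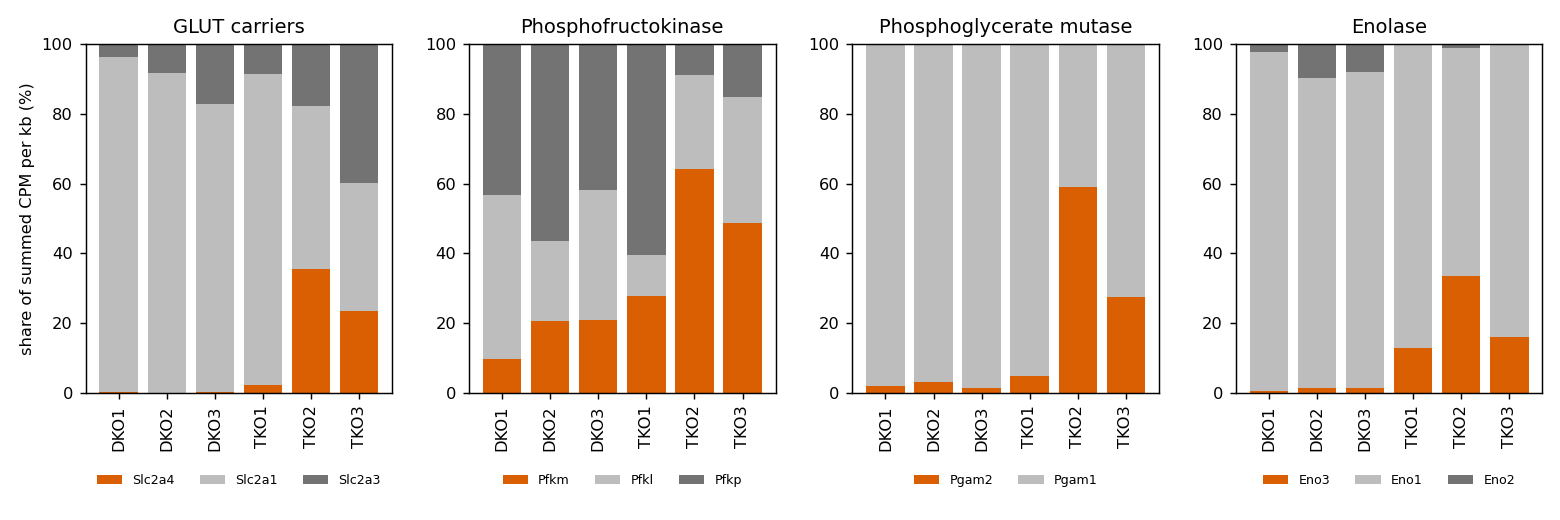
Share of the summed CPM per kilobase of principal transcript that each isoform gave at 4 steps, 1 bar per tumour, with the muscle isoform in orange at the base. The orange part is largest in TKO2, at 35.4, 64, 59 and 33.4% from left to right.

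Ratios of counts within a library were compared for 12 pairs of isoforms by an exact two-sided permutation test, which cannot go below p = 0.1 with 3 tumours a group. The log2 ratio of Slc2a4 to Slc2a1 was -9.49 ± 0.50 in DKO and -2.45 ± 2.71 in TKO (SD, n = 3), a difference of 7.04. This includes the fall of Slc2a1 (log2 fold change -2.85). For Eno3 to Eno1 the difference was 4.55, for Pgam2 to Pgam1 3.83 and for Pfkm to Pfkl 2.07. Groups did not overlap in these 4 pairs (exact permutation p = 0.1 each, adjusted 0.15 over the 12). Pfkm to Pfkp differed by 2.67, with TKO1 inside the DKO range (exact permutation p = 0.2, adjusted 0.24). Among the 7 pairs without a muscle isoform, groups did not overlap in 4: Hk2 to Hk1 and Eno2 to Eno1 were lower in TKO, and Ldhb to Ldha and Pdk4 to Pdk1 higher. The ratios of Slc2a3 to Slc2a1, Aldoc to Aldoa and Slc16a3 to Slc16a1 overlapped.

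**Figure D4:**
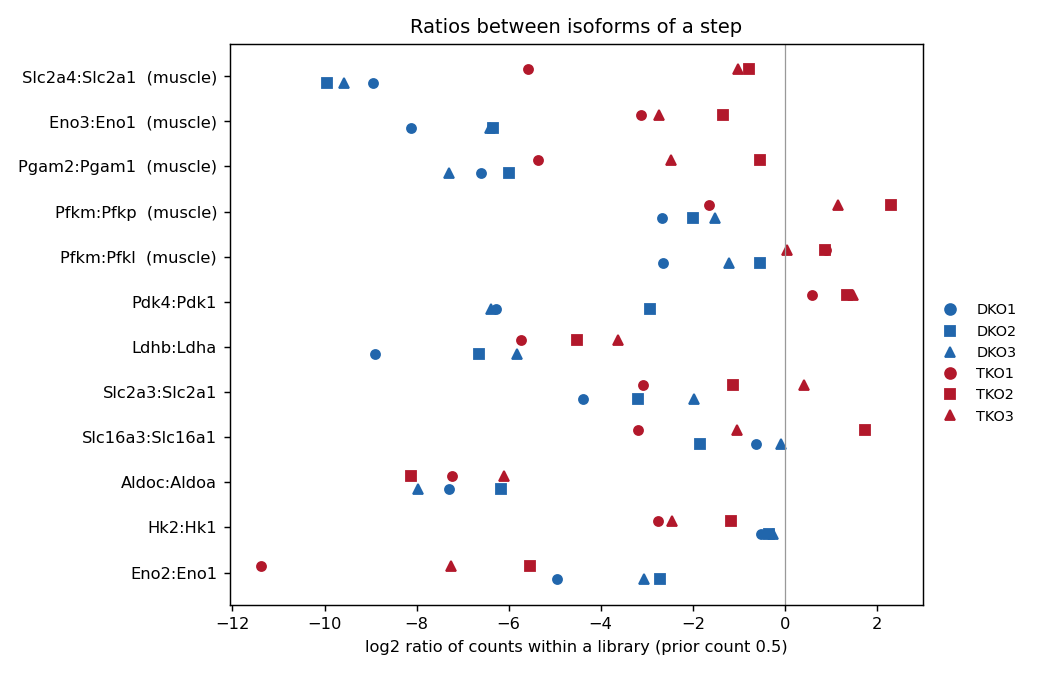
log2 ratio of counts between 2 isoforms in each library, with a prior count of 0.5, for 12 pairs; DKO in blue, TKO in red, symbols by replicate. In the pairs of Eno3, Pgam2 and Slc2a4 all red symbols lie right of the blue ones, and TKO1 (circle) is the red symbol nearest to them.

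Muscle markers moved with these isoforms. The 17 skeletal muscle markers had 6.13, 10.5 and 15.6 summed CPM in the DKO tumours and 598, 13661 and 2500.3 in the TKO tumours. Of 15 that could be tested 14 rose in edgeR, where 4.89% of all genes did, 15 in DESeq2 and 4 in limma-voom. Of the 17, 12 lay under 1 CPM in every DKO library. Markers this low in DKO could pass the filter on low counts mainly through the TKO libraries. Their calls therefore add nothing to the levels. Slc2a4, Pgam2 and Pfkm had the same order of TKO tumours as the marker sum, TKO2 highest and TKO1 lowest, while Eno3 in TKO1 (197 CPM) exceeded Eno3 in TKO3 (75.4 CPM). Ckm, muscle creatine kinase, was at 2.96 CPM in TKO1 and 100.2 CPM in TKO3. The share of muscle tissue in these levels was not tested. Adipocytes also use Slc2a4. Their 6 markers had 6.72, 9.04 and 79.9 summed CPM in the DKO tumours and 35.1, 114 and 56.8 in the TKO tumours, groups that overlapped, and of 2 that could be tested 0 passed in edgeR (1 at an unadjusted p under 0.05, 1 in DESeq2). Among them Adipoq had 0 (DKO1), 0.307 (DKO2) and 0 (DKO3) CPM against 1.29 (TKO1), 4.44 (TKO2) and 0.714 (TKO3) CPM. Their part in Slc2a4 was not tested. On the chromosome, Slc2a4 and Eno3 lie 0.709 Mb apart on chromosome 11. That chromosome holds 6 members, among them Pgam2, which lies 64.1 Mb from Slc2a4.

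**Figure D5:**
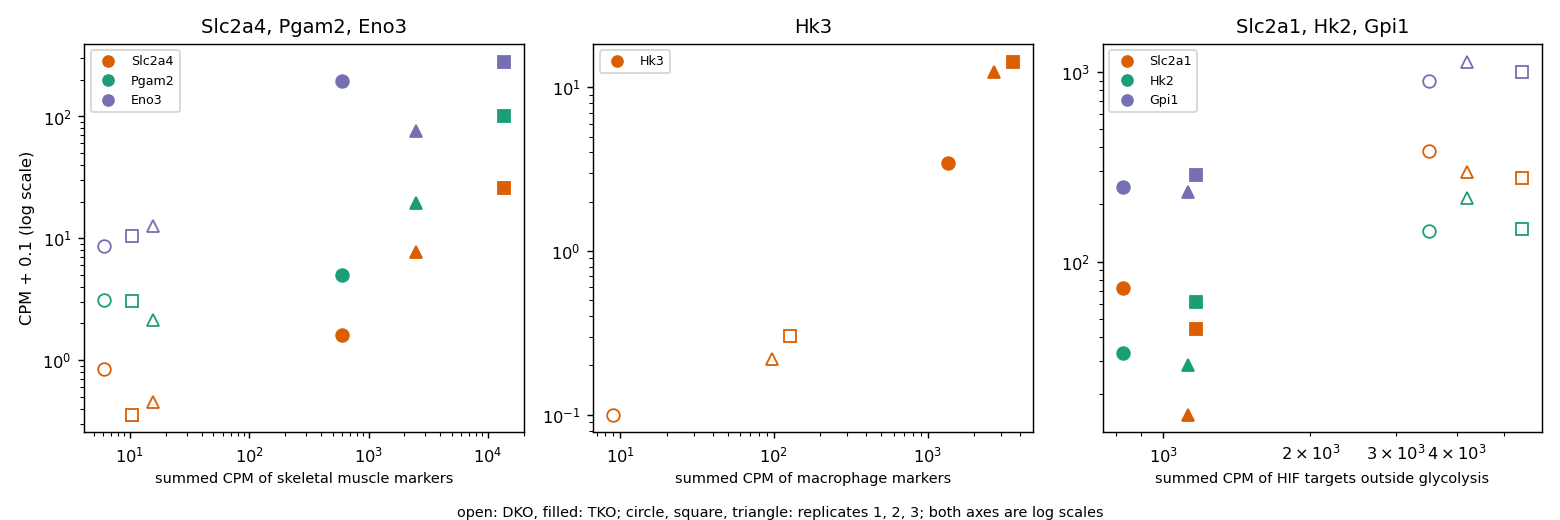
CPM plus 0.1 of named members against the summed CPM of a marker list in the same tumour, both on log scales, open for DKO and filled for TKO. Left, 3 muscle isoforms beside muscle markers; centre, Hk3 beside macrophage markers; right, the 3 genes that fell beside HIF targets outside glycolysis, where the groups form separate clusters in each panel.

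The promoters of Eno3 and Pgam2 are shown as the muscle isoforms with the largest log2 fold changes among those in the RefSeq table. Myogenic factors bind E-boxes, and the form CAGCTG, which reads the same on both strands, was searched and is in capitals. It occurred in 16.3% of all windows and in 5 of the 33 member windows (15.2%). Besides Eno3 and Pgam2, these were Gpi1, Pkm and Pdk1, whose log2 fold changes were -1.97, -0.86 and -1.48. The window of Pfkm, also a muscle isoform, had 0. The Eno3 window (chr11:70656926-70657225, plus strand) had 1 match, at position 39 after the start, and the Pgam2 window (chr11:5803747-5804046, minus strand) 1, at -125.
Eno3: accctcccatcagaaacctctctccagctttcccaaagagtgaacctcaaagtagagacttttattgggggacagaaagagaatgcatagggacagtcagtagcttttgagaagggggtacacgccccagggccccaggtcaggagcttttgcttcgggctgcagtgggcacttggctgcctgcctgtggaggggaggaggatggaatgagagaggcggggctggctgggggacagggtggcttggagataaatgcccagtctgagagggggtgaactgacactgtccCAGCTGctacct
Pgam2: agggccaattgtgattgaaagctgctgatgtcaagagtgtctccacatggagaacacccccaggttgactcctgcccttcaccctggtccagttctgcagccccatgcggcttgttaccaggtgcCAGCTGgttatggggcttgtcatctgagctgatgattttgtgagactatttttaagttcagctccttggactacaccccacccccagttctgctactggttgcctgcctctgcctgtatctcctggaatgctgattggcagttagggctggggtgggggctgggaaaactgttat

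Eno2 lay lower in every TKO tumour. It codes for gamma-enolase, the form of neurons and neuroendocrine cells that many tumours also make (chromosome 6, 124760053 to 124769673). Its level was 77.9 (DKO1), 129 (DKO2) and 128 (DKO3) CPM against 0.625 (TKO1), 15.5 (TKO2) and 3.26 (TKO3) CPM. Every TKO value was below every DKO value, and TKO1 was near 0. Eno2 did not pass in edgeR (log2 fold change -4.11, SE 1.07, adjusted p = 0.0672). With all libraries it passed in DESeq2 (0.000209), in limma-voom (0.0231) and with sex as a covariate (0.0451), and in edgeR without TKO1 (0.0277) or TKO2 (0.0384). The 6 neuronal markers had 0.498, 6.39 and 0.653 summed CPM in the DKO tumours and 13.3, 9.45 and 3.77 in the TKO tumours. Of 2 that could be tested, Rbfox3, at 0 in every DKO library, rose, and both separated the groups. The part of such cells in Eno2 was not tested. Eno2 lies 40.9 kb from Tpi1 and 392 kb from Gapdh on chromosome 6, and these neighbours had log2 fold changes of -1.08 and -0.34.

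None of the 4 genes of lactate production and export passed in edgeR, and Slc16a1 came nearest. Ldha, the M subunit that favours lactate, had 1772, 840.3 and 967 CPM in the DKO tumours and 586, 699 and 697 CPM in the TKO tumours. The groups did not overlap, and Ldha did not pass (log2 fold change -0.85, SE 0.39, adjusted p = 0.225). Ldhb, the H subunit that favours pyruvate, had 3.68, 8.33 and 17.2 CPM in the DKO tumours and 10.9, 30.5 and 56.2 CPM in the TKO tumours (log2 fold change 1.74, SE 0.75, adjusted p = 0.21). Ldhb was a small part of the pair per kilobase, 0.281 to 2.35% in DKO and 2.46 to 9.85% in TKO, and the log2 ratio to Ldha differed by 2.49 without overlap. Slc16a1, coding for the lactate and pyruvate carrier MCT1, had 356 (DKO1), 234 (DKO2) and 204 (DKO3) CPM against 107 (TKO1), 38.9 (TKO2) and 39.9 (TKO3) CPM. All TKO values were the lower ones. Slc16a1 missed the threshold (log2 fold change -2.09, SE 0.50, adjusted p = 0.0526) and passed without TKO1 (0.00739), in limma-voom (0.0363), in DESeq2 (0.00218), with no filter (0.0168), with sex as a covariate (0.0151) and with first-strand counts (0.0487). Slc16a3, coding for MCT4, the exporter of glycolytic cells, had 231, 65.2 and 192 CPM in the DKO tumours and 11.8, 129.7 and 19.3 CPM in the TKO tumours. TKO2 lay within the DKO range while TKO1 and TKO3 lay below it (log2 fold change -1.60, SE 0.96, adjusted p = 0.345).

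At the entry to mitochondria 1 of the 4 kinases that shut pyruvate dehydrogenase rose. Pdk4, the kinase induced by fasting in muscle and heart (chromosome 6, 5483351 to 5496309), had 2.04 (DKO1), 12.4 (DKO2) and 1.9 (DKO3) CPM against 47.7 (TKO1), 155 (TKO2) and 159 (TKO3) CPM. DKO2 stood above the other DKO tumours, and all TKO values were higher still. Pdk4 was 22.1-fold higher in TKO (log2 fold change 4.47, SE 0.95, adjusted p = 0.0386), and lost the call without DKO1 (0.121), DKO2 (0.0583), DKO3 (0.13), TKO2 (0.088) or TKO3 (0.084), and with no filter on low counts (0.083). Pdk1, the HIF-induced kinase, had 161 (DKO1), 94.4 (DKO2) and 161 (DKO3) CPM against 31.9 (TKO1), 60.4 (TKO2) and 56.8 (TKO3) CPM. It was lower in every TKO tumour and missed the threshold (log2 fold change -1.48, SE 0.37, adjusted p = 0.0568), passing without TKO1 (0.0474), in DESeq2 (0.00633), with library totals (0.0495) and with no filter (0.0286). Pdk2, the most widespread kinase, had 3.34, 5.77 and 7.36 CPM in the DKO tumours and 7.21, 35.7 and 29.3 CPM in the TKO tumours (log2 fold change 2.13, SE 0.66, adjusted p = 0.104) and passed without TKO1 (0.0154), which lay within the DKO range, in DESeq2 (0.0118) and with sex as a covariate (0.0477). Pdk3 had 34.1, 21.3 and 38.1 CPM in the DKO tumours and 41.1, 33.8 and 69.4 CPM in the TKO tumours (log2 fold change 0.63, SE 0.39, adjusted p = 0.357). Per kilobase, Pdk1 gave 58.3 ± 5.1% of the RNA of the 4 kinases in DKO and 12.8 ± 1.94% in TKO, and Pdk4 4.18 ± 5.32% and 42.4 ± 9.3% (SD, n = 3). The log2 ratio of Pdk4 to Pdk1 was -5.20 ± 1.97 in DKO and 1.14 ± 0.49 in TKO, and its groups did not overlap.

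The dehydrogenase subunits did not pass in any fit. Pdha1, the E1 alpha subunit, had 117, 73.5 and 100.4 CPM in the DKO tumours and 151, 92 and 119 CPM in the TKO tumours, and Pdhb, the E1 beta subunit, 85, 93.7 and 62.8 CPM in the DKO tumours and 82.7, 113 and 105 CPM in the TKO tumours. Both overlapped between the groups (adjusted p = 0.558 and 0.514). Pdha1 shares 16.1% of its exon length with the antisense gene Map3k15, and reads in both genes were not counted. Its first-strand count was 86.3% of its count on either strand, a ratio that was 51.4% for Pdhb. The count on either strand leaves out the reads in both genes, so this ratio does not measure a strand bias. With first-strand counts the log2 fold change of Pdha1 was 0.35. Of 8 further genes for pyruvate entry and the complex, 0 passed in edgeR, 3 had an unadjusted p under 0.05, and DESeq2 called 2 higher and 0 lower. Mpc2, a subunit of the mitochondrial pyruvate carrier, had 26.3, 18.4 and 19.1 CPM in the DKO tumours and 37.3, 46.1 and 59.3 CPM in the TKO tumours (adjusted p = 0.0716, 0.00916 in DESeq2 and 0.0352 without TKO1). Pdpr, which regulates the phosphatase that reactivates the complex, had 13.7, 4.04 and 8.49 CPM in the DKO tumours and 49.8, 20.4 and 38.9 CPM in the TKO tumours (adjusted p = 0.0736, 0.00486 in DESeq2, 0.0427 with no filter and 0.0456 with sex as a covariate). Pdp2, a catalytic subunit of that phosphatase, had 21.1, 33 and 31.8 CPM in the DKO tumours and 16.3, 5.11 and 10.6 CPM in the TKO tumours (adjusted p = 0.128, 0.0407 without TKO1).

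In 10 of 15 HIF targets outside glycolysis all TKO values lay below all DKO values, as they did in 15.6% of all genes. The log2 fold change was negative for 11 of the 15 and positive for 4. Of the 15, 5 fell by the test, where 2.47% of all genes did, and 0 rose, with a median log2 fold change of -1.75 beside 0.09 over all genes. Those that fell were Ero1l, an oxidase of disulfide formation (1567 ± 1005 CPM in DKO, 34.9 ± 4.21 in TKO, SD, n = 3), Bnip3, a mitophagy receptor (112 ± 28.9 and 17.1 ± 2.75), Adm, adrenomedullin (40.3 ± 14.1 and 4.07 ± 0.925), Ndrg1 (315 ± 81.2 and 93.8 ± 32) and Vegfa, the vessel growth factor (641 ± 155 and 128 ± 74.7). Vegfa lies outside the rule for named genes and was named after its values were seen. Hif1a itself, the oxygen-regulated subunit of HIF-1, fell among 8 HIF subunits and hydroxylases, with 931 (DKO1), 702 (DKO2) and 529 (DKO3) CPM against 88.3 (TKO1), 174 (TKO2) and 87.7 (TKO3) CPM (log2 fold change -2.63, SE 0.42, adjusted p = 0.0216). The other 7 did not pass. As a set the 8 did not fall, with 4 negative and 4 positive log2 fold changes and a median of -0.18. HIF-1 is controlled mainly through protein stability, which RNA counts do not measure. Egln3, a hydroxylase that HIF induces, had 160.1, 140.5 and 196 CPM in the DKO tumours and 50.6, 25.6 and 4.03 CPM in the TKO tumours (adjusted p = 0.102, 0.0088 in DESeq2 and 0.0371 without TKO1). Summed over the 15 targets, DKO tumours held 3504 to 5442 CPM and TKO tumours 825 to 1168 CPM. Hif1a lost its call without DKO1 (0.0783), DKO2 (0.0866), DKO3 (0.0709) or TKO3 (0.0637). Of the 5 targets, only Ero1l (0.049) and Adm (0.0495) passed without DKO1, and none passed without DKO2 or DKO3. The sum of the proliferation markers overlapped between the groups, at 976 to 1242 CPM in DKO and 413 to 1615 in TKO, with TKO1 the highest of the 6 tumours. TKO2 (600 CPM) and TKO3 (413 CPM) lay below every DKO tumour. Of the 7 markers, 1 had all TKO values below all DKO values, and 0 passed in edgeR.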

How the data were processed

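The authors deposited whole-number counts of reads per gene for 6 tumour libraries, with no normalization, from STAR 2.6.1 on mm10 per the submitters' processing notes. Which annotation they counted on was not given in the sources used here. Per the labels' protocols, rRNA-depleted tumour RNA was enriched for poly(A) and read on a HiSeq instrument. The column of reads on either strand was used. It equalled the series table, with 0 genes that differed. Symbols, positions and lengths come from GENCODE M21 (GRCm38), which matched 55240 of 56196 identifiers, and promoters from RefSeq (GRCm38.p6). Reads assigned to no gene were left out: 2.53 to 3.2% unmapped, 3.94 to 4.7% at several places, 5.33 to 9.3% in no gene and 5.1 to 6.53% in several genes.

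Genes were kept by filterByExpr (minimum count 10) and scaled by TMM. TKO was set against DKO in edgeR 4.0.16 (quasi-likelihood test, R 4.3.3), and p-values were adjusted over all genes after Benjamini-Hochberg with a threshold of 0.05. CPM are counts per 1000000 of effective library size. Each SE is the log2 fold change divided by the root of F. CPM per kb use the longest APPRIS principal transcript. Isoform ratios are log2 of counts plus 0.5. The tests were tried on simulated data. Counting intervals are not given, and reads carry no molecular identifiers. Alternatives were RLE factors, library totals, no filter, DESeq2 1.42.0, limma-voom (limma 3.58.1), the replicate number as a block, sex as covariate, first-strand counts, muscle markers left out of scaling, each library left out, and exon-union lengths for shares, added after the data were seen. Named genes were the 35 members, up to 4 of each other list by smallest p, defining markers, and Skp2. The members, lists and tests were chosen with earlier results of these data known. Lists were described by counts and medians, with no set test.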

Additional observations from a re-analysis of the deposited data

How the results depend on the processing

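All 35 members kept their sign under every alternative, except Pfkm without TKO replicate 2 (log2 fold change -0.095, range with 1 library left out -0.095 to 0.92) and Eno1 without DKO replicate 1 (0.030, range -1.24 to 0.030). Members called higher and lower numbered 3 and 3. They were 7 and 8 by DESeq2, 3 and 5 both without a filter and by limma-voom, 4 and 5 with sex as a covariate, and ranged from 0 to 7 and 0 to 8 with 1 library left out. Counts over all genes, 751 higher and 380 lower, became 1784 and 1109 by DESeq2 and ranged from 0 to 1575 and 0 to 810 with 1 library left out. Without DKO3 edgeR called 0 genes, with 3017 at an unadjusted p under 0.05. The replicate block gave 212 higher and 83 lower genes, and 1 higher and 0 lower members. Same-numbered libraries did not deviate together (correlations of -0.01, 0.01 and -0.02 for replicates 1, 2 and 3). Pairs with unlike numbers ran from -0.009 to 0.017. Deviations were taken from group means of only 3 libraries, so this check cannot decide whether the numbers pair the tumours. By sex the numbers do match, with replicate 1 male in both groups. Aldoc to Aldoa, near 0 in difference, became 0.48 without DKO2, 0.03 without TKO1 and 0.48 without TKO2, and ranged from -0.54 to 0.48 with 1 library left out. Slc16a3 to Slc16a1 ranged from -1.27 to 1.20. The other 10 ratios kept their direction. The cause of these shifts was not tested. Without a filter the median over all genes shifted by 0.15. At these depths Slc2a4 and Hk3 rest on 26 and 6 counts in DKO.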

Other observations

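Of 14 glycogen genes tested, 1 fell and 0 rose (median log2 fold change -0.21). Over all genes 2.47% fell and 4.89% rose, so a count this small does not set the list apart. The gene that fell was Gys1, glycogen synthase of muscle and most tissues, with 160.0, 138 and 161 CPM in the DKO tumours and 28.1, 59.4 and 57.4 CPM in the TKO tumours (log2 fold change -1.66, SE 0.35, adjusted p = 0.0363). It lost the call without DKO1 (0.113), DKO2 (0.116), DKO3 (0.129), TKO2 (0.0733) or TKO3 (0.0781). Phka1, the muscle regulatory subunit of phosphorylase kinase, had 22.4, 22.9 and 25.1 CPM in the DKO tumours and 46.3, 55.7 and 43.6 CPM in the TKO tumours (adjusted p = 0.0559, 0.00124 in DESeq2 and 0.0404 without TKO1). Phkg2, its catalytic subunit of liver and testis, had 21.5, 28.9 and 20.5 CPM in the DKO tumours and 7.63, 9.79 and 10.2 CPM in the TKO tumours (adjusted p = 0.0576, 0.00118 in DESeq2). Pygm, the muscle phosphorylase, and Pgm1, a phosphoglucomutase of most tissues, were both listed at 0 in all 6 libraries, so a 0 here cannot be read as absent expression. In the pentose phosphate route 0 of 8 genes passed in edgeR, 2 had an unadjusted p under 0.05, and DESeq2 called 1 higher and 0 lower. Rpia, ribose phosphate isomerase, had 12.5, 12 and 13.7 CPM in the DKO tumours and 38.6, 25.4 and 26.8 CPM in the TKO tumours (adjusted p = 0.059, 0.00232 in DESeq2 and 0.0456 with first-strand counts), with all TKO values above the DKO values. Tkt, transketolase, had 208, 218 and 299 CPM in the DKO tumours and 97.2, 124 and 183 CPM in the TKO tumours (adjusted p = 0.174), with all TKO values below. Of 7 gluconeogenesis genes 3 could be tested and 0 passed in edgeR, 1 had an unadjusted p under 0.05, and DESeq2 called 0 higher and 0 lower. Pck2, the mitochondrial phosphoenolpyruvate carboxykinase, had 179, 154 and 145 CPM in the DKO tumours and 16.1, 65.6 and 85.9 CPM in the TKO tumours (adjusted p = 0.163, 0.0396 without TKO1).

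Among 24 further isoforms and carriers, 16 could be tested, 1 rose and 1 fell. Over all genes 4.89% rose and 2.47% fell, so counts this small do not set the list apart. Slc16a7, coding for the high-affinity monocarboxylate carrier MCT2, rose, with 0.448 (DKO1), 0.204 (DKO2) and 0.0594 (DKO3) CPM against 1.5 (TKO1), 29.6 (TKO2) and 31.6 (TKO3) CPM (log2 fold change 6.40, SE 1.35, adjusted p = 0.0379), and TKO1 was far below the other TKO tumours. Slc2a6, coding for the carrier GLUT6, fell, with 20.7 (DKO1), 24.1 (DKO2) and 48 (DKO3) CPM against 1.67 (TKO1), 4.24 (TKO2) and 1.48 (TKO3) CPM (log2 fold change -3.65, SE 0.61, adjusted p = 0.0243). Slc2a6 lost its call without DKO1 (0.0713), DKO2 (0.0866), DKO3 (0.0958) or TKO3 (0.0637), and Slc16a7 without DKO1 (0.108), DKO2 (0.152), DKO3 (0.136), TKO2 (0.087) or TKO3 (0.0845). With all libraries Slc16a7 did not pass in limma-voom (0.165), with sex as a covariate (0.0854) or with the replicate block (0.16). Its DKO level rests on 14 counts.

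Several members have near-identical copies elsewhere in the annotation (at least 95% identity over 300 bases), and reads matching several places were not counted. Gapdh had 103 such genes, of which 95 are annotated as pseudogenes, and they held 1.47% of the joint counts. The copies of Eno1 held 5.02%, nearly all in Eno1b with 7564 counts. For the other members with copies the share was at most 2.36%.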
